A study of Arabidopsis thaliana with 9 samples.

Results

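The genes that make and remove poly(ADP-ribose) were followed in leaf RNA of Arabidopsis thaliana. They were picked by locus name: 3 poly(ADP-ribose) polymerase genes, PARP1 (AT2G31320), PARP2 (AT4G02390) and PARP3 (AT5G22470), and 2 poly(ADP-ribose) glycohydrolase genes, PARG1 (AT2G31870, also named TEJ) and PARG2 (AT2G31865), which is 5 of the 27655 genes in the table. RNA was sequenced from leaves of 3-week-old plants grown in long days (16 h light, 8 h dark, 22 °C), with 3 libraries for each of 3 genotypes. The mutant hyp/c-1 is atxr5;atxr5;atxr6hyp;atxr6c-1, with 1 copy each of the atxr6hyp and atxr6c-1 alleles. The mutant hyp/hyp is atxr5;atxr5;atxr6hyp;atxr6hyp, with both copies the atxr6hyp allele, and WT is Col. Both mutants are thus homozygous for atxr5 and carry at least 1 atxr6hyp allele, while WT carries none of these alleles. ATXR5 and ATXR6 are histone methyltransferases that place a single methyl group on lysine 27 of histone H3, and the series asked what sets the development of hyp/c-1 apart from that of hyp/hyp. The labels do not say whether replicates came from separate plants, so p-values measure the spread between these libraries only.

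Poly(ADP-ribose) is a chain that PARP enzymes build from NAD on proteins next to DNA breaks, releasing nicotinamide. PARG enzymes cut the chain again into free ADP-ribose, so that the mark is brief and costs NAD. In Arabidopsis, PARP1 and PARP2 act in the nucleus in DNA repair and stress responses, PARP3 is known mainly from seeds, and PARG1 is known from the circadian clock and from immunity. Many Arabidopsis genes that respond to DNA breaks are switched on by SOG1, a transcription factor that recognises CTTNNNNNNNAAG.

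The start regions of 3 genes are shown because 2 of them hold that motif and 1 does not, while all 3 genes were higher in the mutants. Each line gives the 250 bases before the annotated start, 5′ to 3′ on the gene's strand, read from the TAIR10.1 genome with RefSeq gene models, and capitals mark a match to CTTNNNNNNNAAG. PARP2 lies on the plus strand at chr4:1049516-1049765, PARG2 on the minus strand at chr2:13549572-13549821, and PARP1 on the minus strand at chr2:13359751-13360000.
PARP2: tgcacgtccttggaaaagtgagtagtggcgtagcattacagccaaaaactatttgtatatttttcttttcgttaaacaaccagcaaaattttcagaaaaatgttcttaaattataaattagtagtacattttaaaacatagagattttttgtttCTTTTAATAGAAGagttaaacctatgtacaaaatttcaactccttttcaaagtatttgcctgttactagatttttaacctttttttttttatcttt
PARG2: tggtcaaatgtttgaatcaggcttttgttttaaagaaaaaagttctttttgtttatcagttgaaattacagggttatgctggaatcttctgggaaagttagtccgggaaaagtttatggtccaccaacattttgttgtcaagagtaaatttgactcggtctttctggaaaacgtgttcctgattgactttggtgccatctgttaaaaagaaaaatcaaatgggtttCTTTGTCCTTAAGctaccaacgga
PARP1: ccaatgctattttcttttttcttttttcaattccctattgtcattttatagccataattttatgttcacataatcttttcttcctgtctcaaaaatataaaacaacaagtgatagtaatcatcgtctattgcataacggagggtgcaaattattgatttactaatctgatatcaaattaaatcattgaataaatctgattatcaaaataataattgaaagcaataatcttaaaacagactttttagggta
The motif was searched on both strands from 250 bases before to 50 bases after each start, a window of 300 bases. In PARP2 it lay at −96 to −84 and in PARG2 at −24 to −12, counted from the annotated start. PARG1 held one match after its start, at +15 to +27, with the letters CTTGTCGCAGAAG. No match was found in this window of PARP1 or PARP3. Over the nuclear genes in the table, the motif was present in 3230 of 27443 such windows, 11.8%, so a match is common. Whether the matches in PARP2, PARG2 and PARG1 matter for their levels was not tested. The letters TTTCCCGC and TTTGGCGC, which E2F cell-cycle factors recognise, were found in none of the 5 windows and in 0.798% and 0.434% of all windows.

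Values are TPM, a transcript abundance in which reads are scaled by gene length and by library total. Recovered depth was 21289647 to 38766556 reads per library. The targeted genes went with the labels: ATXR6 had 1, 0 and 2 reads in hyp/c-1, 0, 2 and 3 reads in hyp/hyp and 40, 41 and 41 reads in WT, and ATXR5 averaged 1.64 TPM in hyp/c-1, 1.83 TPM in hyp/hyp and 4.28 TPM in WT. In a principal component analysis of the 9 libraries, the second component, with 30.5% of the variance, placed replicate 3 of hyp/c-1 and replicate 3 of hyp/hyp at opposite ends, at −41.4 and 39.5. Differences were tested with limma on log2(TPM + 1) over 17684 genes, and a gene was called when its Benjamini-Hochberg adjusted p was under 0.05 and its log2 difference at least 1 in size. Of all genes tested, hyp/c-1 had 462 (2.61%) called higher than WT and 104 (0.588%) called lower, and hyp/hyp had 416 (2.35%) called higher than WT and 89 (0.503%) called lower. All leaf markers were present, with summed levels of 33931 to 48585 TPM in hyp/c-1, 27421 to 34593 TPM in hyp/hyp and 41308 to 44508 TPM in WT.

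The genes PARP2, PARP1 and PARG2, 3 of the 5, were called higher in hyp/c-1 than in WT, and the same 3 genes were called higher in hyp/hyp than in WT. PARG1 rose by less than the fold needed for a call, and PARP3 was listed at 0 in every library. By adjusted p alone, 4 of 5 genes were higher in each mutant, beside 11.2% of all genes in hyp/c-1 and 11.5% in hyp/hyp. For those 4 genes every mutant library lay above every WT library, an ordering that 19.0% of all genes showed in hyp/c-1 and 27.5% in hyp/hyp. Both comparisons use the same WT libraries, so the mutants' values are given side by side. In RNA of whole leaves, a change in the number of cells that express a gene and a change in RNA per cell cannot be told apart.

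**Figure D1:**
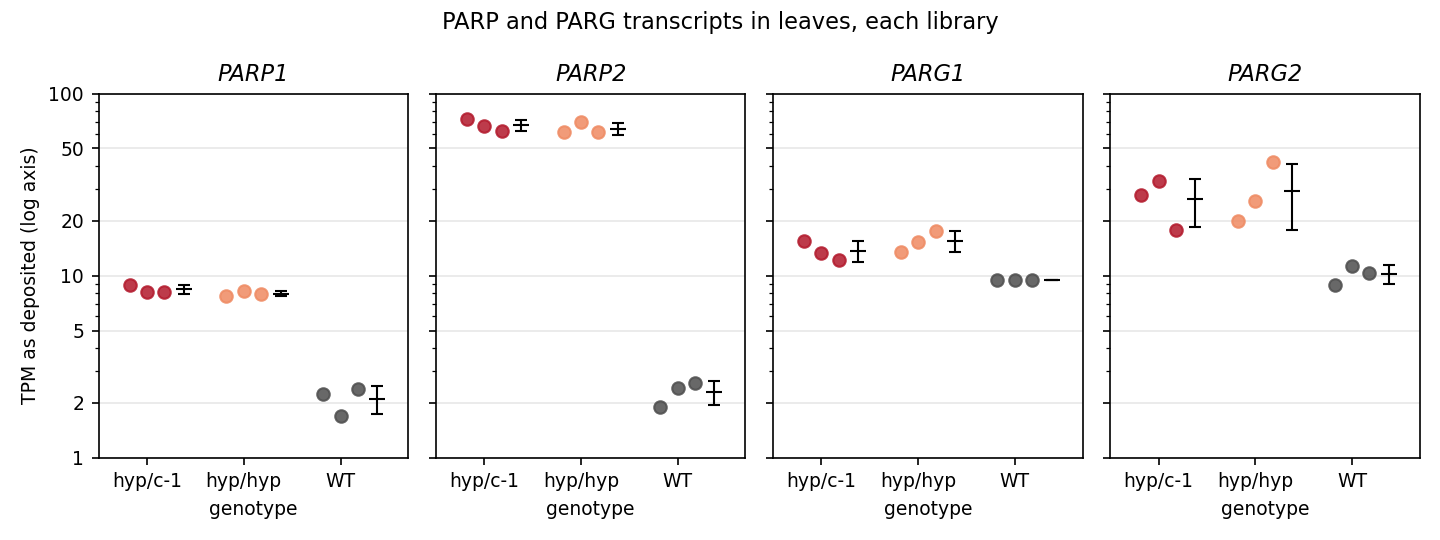
Deposited TPM on a log axis of PARP1, PARP2, PARG1 and PARG2, by genotype. Coloured points are the 3 libraries of a genotype in replicate order, and the black mark beside them is their mean with the SD. Mean PARP2 was 66.9 TPM in hyp/c-1, 64.2 TPM in hyp/hyp and 2.30 TPM in WT, and the PARG2 points of each mutant are the most spread.

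PARP2 encodes the enzyme known to supply much of the poly(ADP-ribose) formed after DNA damage in Arabidopsis. It spans 4421 bp at chr4:1049766-1054186 on the plus strand, with 2555 bp of exons. Its level was 72.2, 66.0 and 62.5 TPM in hyp/c-1 and 61.2, 69.7 and 61.6 TPM in hyp/hyp, against 1.91, 2.40 and 2.59 TPM in WT. The 6 mutant libraries lay close together and far above the WT libraries, and the mutants overlapped each other. Means were 66.9 ± 4.92 TPM in hyp/c-1, 64.2 ± 4.81 TPM in hyp/hyp and 2.30 ± 0.349 TPM in WT (SD, n = 3 each). The ratio of means to WT was 29.1 in hyp/c-1 and 27.9 in hyp/hyp. On the log2(TPM + 1) scale, which understates changes of low genes, the difference from WT was 4.37 in hyp/c-1 (SE 0.10, limma adjusted p = 4.26e-09) and 4.31 in hyp/hyp (SE 0.10, limma adjusted p = 4.88e-09). Ranked from the highest difference down among the 17684 genes tested, PARP2 stood at rank 9 in hyp/c-1 and rank 8 in hyp/hyp. The WT libraries held 135 to 160 reads of PARP2, against 4009 to 5808 in hyp/c-1 and 3107 to 3788 in hyp/hyp.

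The next gene on the same strand, AT4G02400, begins 12 bp past the end of PARP2. Whether the authors' counting used strand is not given in the sources used here, and reads running past the end of PARP2 were not separated. AT4G02400 had 13.0, 10.5 and 13.1 TPM in hyp/c-1 and 11.2, 12.2 and 16.1 TPM in hyp/hyp, against 8.35, 8.18 and 9.18 TPM in WT. No annotated gene overlapped PARP2 or any of the other 4 genes, and no stretch of 50 exon bases of any of the 5 genes occurred elsewhere in the genome.

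PARP1 encodes the larger nuclear polymerase, with zinc fingers that bind broken DNA. It spans 6003 bp at chr2:13353748-13359750 on the minus strand, with 3422 bp of exons. Its level was 8.93, 8.14 and 8.18 TPM in hyp/c-1 and 7.71, 8.23 and 7.98 TPM in hyp/hyp, against 2.23, 1.69 and 2.39 TPM in WT. All 6 mutant libraries fell within a narrow band above the WT libraries. Means were 8.42 ± 0.443 TPM in hyp/c-1, 7.97 ± 0.261 TPM in hyp/hyp and 2.11 ± 0.367 TPM in WT (SD, n = 3 each). The ratio of means to WT was 4.0 in hyp/c-1 and 3.79 in hyp/hyp. The log2 difference from WT was 1.61 in hyp/c-1 (SE 0.10, limma adjusted p = 8.01e-06) and 1.54 in hyp/hyp (SE 0.10, limma adjusted p = 1.38e-05).

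PARP3, the polymerase known from seeds, lies on the plus strand at chr5:7446962-7451049. It was listed at 0 TPM in all 9 libraries, so there was nothing to compare. A count of 0 allows up to 3 reads, which is 0.0403 to 0.0534 TPM in hyp/c-1, 0.0524 to 0.0728 TPM in hyp/hyp and 0.0459 to 0.0524 TPM in WT, counting error only. Summed over 3 seed storage protein genes, levels were at most 0.139 TPM in hyp/c-1, 0.283 TPM in hyp/hyp and 0.369 TPM in WT.

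PARG2, a glycohydrolase gene known to be induced by pathogens and DNA damage, lies at chr2:13546544-13549571 on the minus strand. It had 27.8, 33.1 and 17.8 TPM in hyp/c-1 and 20.04, 25.7 and 42.1 TPM in hyp/hyp, against 8.93, 11.3 and 10.4 TPM in WT. Every mutant library was above every WT library, but the mutant libraries were widely spread. Means were 26.2 ± 7.76 TPM in hyp/c-1, 29.3 ± 11.5 TPM in hyp/hyp and 10.2 ± 1.21 TPM in WT (SD, n = 3 each). The ratio of means to WT was 2.57 in hyp/c-1 and 2.87 in hyp/hyp. The log2 difference from WT was 1.24 in hyp/c-1 (SE 0.27, limma adjusted p = 0.0101) and 1.37 in hyp/hyp (SE 0.27, limma adjusted p = 0.00667). The standard error was thus larger than those of PARP1 and PARP2 in the same fit.

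The lowest and the highest mutant value of PARG2 came from replicate 3 of hyp/c-1 and replicate 3 of hyp/hyp, the libraries that stood apart on the second component. Without replicate 3 of hyp/c-1, the log2 difference of hyp/c-1 from WT was 1.49 (limma adjusted p = 0.00512). Without replicate 3 of hyp/hyp, the log2 difference of hyp/hyp from WT was 1.09 (limma adjusted p = 0.0126). PARG2 remained called in both cases. The part of this component in the spread of PARG2 was not tested.

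PARG1, whose enzyme sets the period of the circadian clock, lies on the minus strand at chr2:13549861-13553844. It ends 289 bp before PARG2 begins. PARG1 had 15.6, 13.3 and 12.2 TPM in hyp/c-1 and 13.5, 15.4 and 17.6 TPM in hyp/hyp, against 9.48, 9.51 and 9.49 TPM in WT. The WT libraries were nearly equal, and all mutant libraries were above them. The WT values rest on 603, 563 and 529 reads and lie closer together than counting error would usually leave them. Their SD therefore understates the error of the WT level. Means were 13.7 ± 1.75 TPM in hyp/c-1, 15.5 ± 2.02 TPM in hyp/hyp and 9.49 ± 0.0162 TPM in WT (SD, n = 3 each), a ratio to WT of 1.44 in hyp/c-1 and 1.63 in hyp/hyp. The log2 difference from WT was 0.48 in hyp/c-1 (SE 0.11, limma adjusted p = 0.0156) and 0.65 in hyp/hyp (SE 0.11, limma adjusted p = 0.00408), so PARG1 rose by adjusted p and was not called. In hyp/c-1 it no longer passed without WT replicate 1 (limma adjusted p = 0.0561) or without WT replicate 2 (limma adjusted p = 0.0551). In both fits the log2 difference stayed at 0.48, with a larger SE of 0.14. Without WT replicate 3 it passed narrowly (limma adjusted p = 0.0485). The library order of PARG1 in hyp/hyp was that of PARG2, with replicate 3 highest, while in hyp/c-1 PARG1 was highest in replicate 1 and PARG2 in replicate 2.

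The gene beyond PARG1 on its other side, SOBIR1, a receptor-like kinase gene of immunity, starts 1025 bp away on the opposite strand. It had 329, 371 and 238 TPM in hyp/c-1 and 323, 385 and 495 TPM in hyp/hyp, against 223, 215 and 244 TPM in WT. Its highest library was also replicate 3 of hyp/hyp, and its lowest in hyp/c-1 was replicate 3.

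Between the mutants, none of the 5 genes was called, none passed adjusted p alone, and none had an unadjusted p under 0.05 in limma, while limma with voom on recovered reads called none as well. Of all genes tested, 92 (0.52%) were called between the mutants and 502 (2.84%) passed adjusted p alone. That count of 92 is unstable: it was 0 with a replicate block or with only these 2 genotypes fitted, 34 with no minimum, and 1 to 322 with 1 library left out. For hyp/c-1 minus hyp/hyp, the log2 difference of PARP2 was 0.06 (95% interval −0.17 to 0.29, limma adjusted p = 0.740). That of PARP1 was 0.07 (−0.16 to 0.30, limma adjusted p = 0.700). The intervals of both polymerases leave out a difference of 1 in either direction, as do those of PARG1 and PARG2 given next.

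For PARG1 the difference between the mutants was −0.17 (95% interval −0.42 to 0.09, limma adjusted p = 0.377). PARG2 had the widest interval, −0.73 to 0.47 around a difference of −0.13 (limma adjusted p = 0.781). Its sign turned when a library that stood apart was left out, to 0.11 without replicate 3 of hyp/c-1 and 0.16 without replicate 3 of hyp/hyp. These data therefore give no direction for PARG2 between the mutants.

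**Figure D2:**
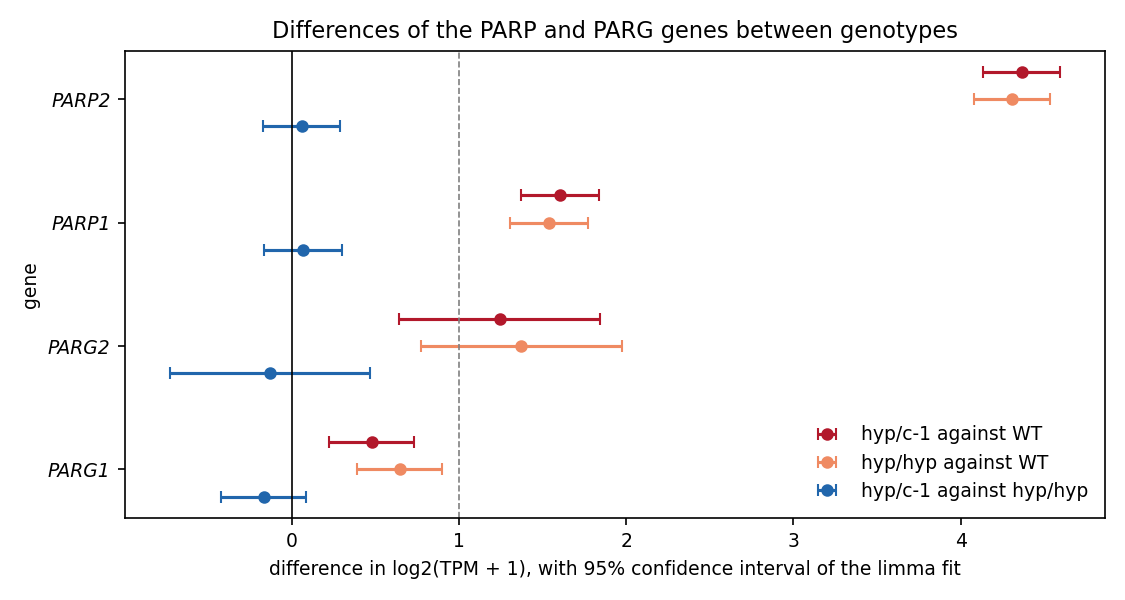
Differences in log2(TPM + 1) of the 4 detected genes in the 3 comparisons, with 95% confidence intervals from the limma fit; the solid line is 0 and the dashed line 1, the size needed for a call. PARP2 stands near 4.37 and 4.31 against WT, and the intervals between the mutants all include 0.

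Levels of different genes were compared per exon length, since the deposited TPM divides reads by the whole gene span with introns. In WT, on this scale, PARG1 was highest at 15.5 ± 0.0121 TPM per exon length, above PARG2 at 11.8 ± 1.38 (SD, n = 3 each). PARP2 at 3.06 ± 0.464 and PARP1 at 2.84 ± 0.500 followed and overlapped each other. In hyp/c-1 the order began with PARP2 at 89.3 ± 6.25 TPM per exon length. PARG2 at 30.4 ± 8.99 and PARG1 at 22.5 ± 2.78 overlapped next, and PARP1 was lowest of the detected genes at 11.4 ± 0.559. In hyp/hyp the order was the same, with PARP2 at 85.5 ± 6.52, PARG2 at 33.9 ± 13.2, PARG1 at 25.4 ± 3.22 and PARP1 at 10.8 ± 0.349. PARP2 was thus among the lower genes in WT and the highest in both mutants.

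Within the polymerase pair, the ratio of PARP2 to PARP1 per exon length was 7.98, 7.99 and 7.54 in hyp/c-1 and 7.83, 8.36 and 7.61 in hyp/hyp, against 0.845, 1.40 and 1.07 in WT. The share of PARP2 in the summed polymerase level was 88.7% ± 0.337 in hyp/c-1, 88.8% ± 0.471 in hyp/hyp and 51.9% ± 6.29 in WT (SD, n = 3 each). The pair was nearly even in WT, and the mutant libraries held one ratio within a narrow range.

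Within the glycohydrolase pair, the ratio of PARG2 to PARG1 per exon length ranged over 1.04 to 1.76 in hyp/c-1 and 1.05 to 1.70 in hyp/hyp, against 0.667 to 0.843 in WT. On this scale, every mutant library thus held more PARG2 than PARG1 and every WT library less. The WT side depends on the scale. In deposited TPM, PARG2 was below PARG1 in WT replicate 1 (8.93 against 9.48 TPM). It was above PARG1 in WT replicate 2 (11.3 against 9.51 TPM) and WT replicate 3 (10.4 against 9.49 TPM). Per exon length, the share of PARG2 was 56.8% ± 6.48 in hyp/c-1, 56.1% ± 6.11 in hyp/hyp and 43.1% ± 2.90 in WT (SD, n = 3 each).

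Summed per exon length, the polymerases reached 101 ± 6.76 in hyp/c-1 and 96.3 ± 6.84 in hyp/hyp, against 5.91 ± 0.672 in WT. The glycohydrolases reached 52.9 ± 10.6 in hyp/c-1 and 59.3 ± 16.3 in hyp/hyp, against 27.4 ± 1.38 in WT (SD, n = 3 each). Polymerase over glycohydrolase transcript was 1.88, 1.64 and 2.33 in hyp/c-1 and 2.02, 1.89 and 1.196 in hyp/hyp, against 0.215, 0.191 and 0.242 in WT. Polymerase transcripts outnumbered glycohydrolase transcripts in every mutant library, and glycohydrolase transcripts outnumbered polymerase transcripts in every WT library. These ratios are of RNA, and neither protein nor poly(ADP-ribose) was measured.

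**Figure D3:**
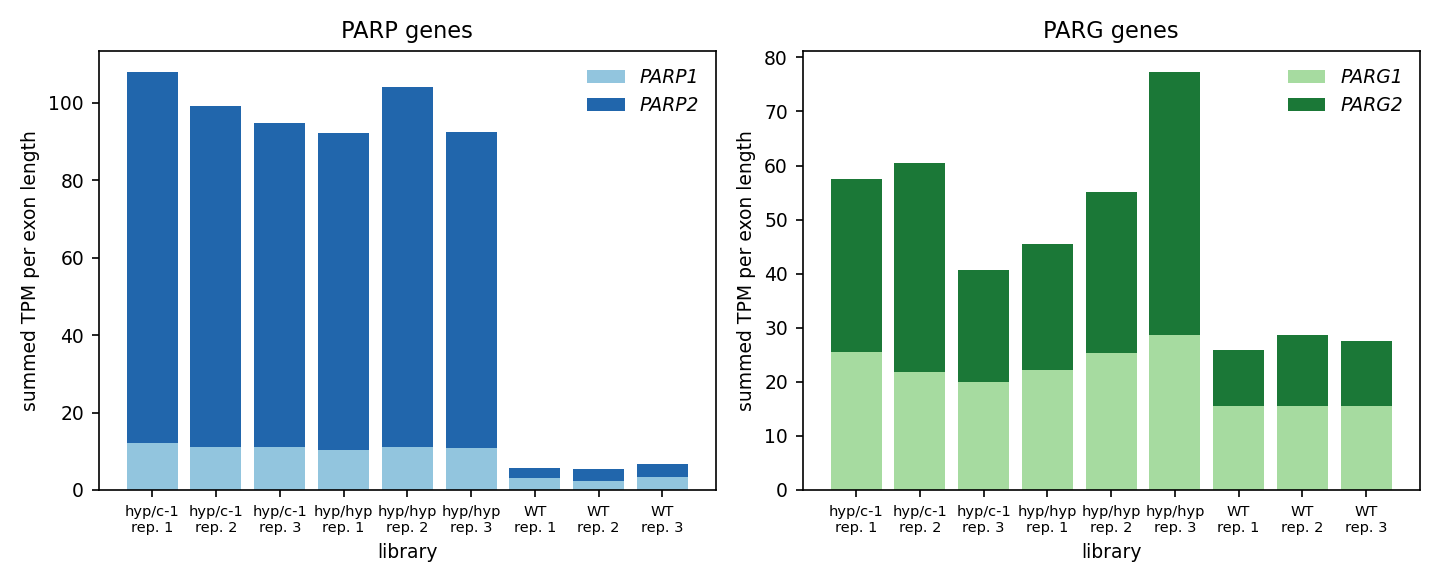
TPM per exon length in each library, stacked for PARP1 and PARP2 on the left and for PARG1 and PARG2 on the right. PARP2 fills 88.7% of the polymerase bar in hyp/c-1 and 88.8% in hyp/hyp against 51.9% in WT, and the tallest glycohydrolase bar is replicate 3 of hyp/hyp.

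The genes most like each called member were taken by Pearson's r of log2(TPM + 1) over 9 libraries, which include the step between WT and mutants, so r is also given over the 6 mutant libraries alone. These values are descriptions, and all libraries of a genotype share that step. Most like PARP2 were AGO2, an argonaute gene, at r = 0.999 (0.917 within the mutants), GMI1, a gene of recombination repair, at 0.999 (0.783), and KCS17, a gene of fatty acid elongation, at 0.999 (0.692). For PARP1 they were LigB at 0.997 (0.682), SMR7, a cell-cycle inhibitor gene, at 0.997 (0.854), and SIP4, a protein kinase gene, at 0.996 (0.128). For PARG2 they were RAN-1, a nuclear transport GTPase gene, at 0.979 (0.955), ARP8, an actin-related gene, at 0.977 (0.892), and AT5G41550 at 0.977 (0.983). Within the mutants, r was 0.892 or above for the 3 genes nearest to PARG2 and 0.128 for SIP4 with PARP1. These genes were picked on 9 libraries that include the 6 mutant libraries. In the mutants PARG2 ranged over 17.8 to 42.1 TPM and PARP1 only over 7.71 to 8.93 TPM. The r values of PARG2 and PARP1 within the mutants therefore cannot be compared.

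Gene lists around the pathway were read beside the 5 genes. These lists were picked when earlier results from the same libraries were known, so their counts are descriptions and not an independent test. In the DNA damage response list, 11 of 20 genes tested were called higher and none lower in hyp/c-1, with a median log2 difference of 1.35 against −0.02 over all genes. In hyp/hyp, 10 of 20 were called higher and none lower, with a median of 1.23 against 0.06 over all genes. For comparison, the background share called higher was 2.61% for hyp/c-1 and 2.35% for hyp/hyp. The list has 22 genes, of which SMR5 and ATR were not tested. SMR5 was at 0 in all 9 libraries, and ATR was under the minimum of 1 TPM. SMR7 averaged 141 TPM in hyp/c-1, 134 TPM in hyp/hyp and 0.564 TPM in WT, a log2 difference of 6.52 and 6.45. XRI1, a gene induced by X-rays, differed from WT by 3.51 in hyp/c-1 and 3.49 in hyp/hyp on the log2 scale, and GMI1 by 3.42 and 3.35. CYCB1;1, a mitotic cyclin gene that DNA breaks induce, differed by 3.16 and 3.11, TSO2, a ribonucleotide reductase gene, by 3.00 and 2.89, and BRCA1 by 2.62 and 2.49. On this scale PARP2 lay between SMR7 and XRI1 in both mutants, and PARP1 and PARG2 lay below BRCA1. That order depends on the scale, which understates changes of low genes. GMI1 averaged 14.8 TPM in hyp/c-1, 14.0 TPM in hyp/hyp and 0.473 TPM in WT. By ratio of mean TPM to WT, GMI1 stood slightly above PARP2 in both mutants. So did ANAC085 of the same list, though its WT libraries held only 5, 8 and 5 reads. SOG1 itself did not pass, at −0.05 in hyp/c-1 and −0.01 in hyp/hyp.

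The remaining lists held no called gene in either mutant by limma at the minimum of 1 TPM, and the genes named from them were picked after their values were seen. For ADP-ribose handling, which covers PARP-like proteins without known activity and Nudix hydrolases of ADP-ribose, 1 of 10 genes tested passed adjusted p alone in hyp/c-1 and 2 in hyp/hyp, all higher. Of all genes, 11.2% were higher by adjusted p alone in hyp/c-1 and 11.5% in hyp/hyp. The median log2 difference was 0.04 in hyp/c-1 and 0.32 in hyp/hyp. At an unadjusted p under 0.05 the numbers were 4 in hyp/c-1 and 6 in hyp/hyp, beside 33.3% of all genes tested in hyp/c-1 and 35.5% in hyp/hyp, and voom called 1 in hyp/c-1 and 0 in hyp/hyp. NUDT6, a Nudix hydrolase gene, had 9.82, 14.4 and 14.7 TPM in hyp/c-1 and 9.50, 10.7 and 9.37 TPM in hyp/hyp, against 4.97, 6.62 and 6.51 TPM in WT. Its log2 difference was 0.98 in hyp/c-1 (limma adjusted p = 0.00235), just under the size for a call, and 0.63 in hyp/hyp (limma adjusted p = 0.0180). NUDT7, which is known to limit immune signalling, had 56.4, 69.3 and 47.2 TPM in hyp/c-1 and 62.1, 83.2 and 135 TPM in hyp/hyp, against 45.7, 49.3 and 49.2 TPM in WT. It passed in hyp/hyp (0.87, limma adjusted p = 0.0287) and not in hyp/c-1 (0.24, limma adjusted p = 0.536), and the test between the mutants did not separate them (limma adjusted p = 0.143).

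SRO5, a PARP-like gene of stress responses, had 2.04, 2.81 and 0.592 TPM in hyp/c-1 and 2.40, 7.37 and 31.4 TPM in hyp/hyp, against 1.82, 1.34 and 1.67 TPM in WT. Its log2 difference in hyp/hyp was 1.90 and did not pass (limma adjusted p = 0.0670). Replicate 3 of hyp/hyp was again the highest library and replicate 3 of hyp/c-1 the lowest. SRO3, another PARP-like gene, was below the minimum of 1 TPM, with 41, 28 and 30 reads in hyp/c-1 and 19, 16 and 13 reads in hyp/hyp, against 1, 0 and 5 reads in WT. Every mutant library of SRO3 lay above every WT library. In the fit without a minimum, over 23775 genes, its log2 difference was 1.06 in hyp/c-1 (limma adjusted p = 0.000221), which is a call, and 0.71 in hyp/hyp (limma adjusted p = 0.00214), which is not. The difference between the mutants did not pass in that fit (0.35, limma adjusted p = 0.105).

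Of the genes that supply or use NAD, the substrate of PARP enzymes, 3 of 11 tested were higher and 1 lower by adjusted p alone in hyp/c-1, and 1 higher and 1 lower in hyp/hyp. Of all genes, 9.21% were lower by adjusted p alone in hyp/c-1 and 9.3% in hyp/hyp, so 1 of 11 lower is near that background. The shares higher were 11.2% in hyp/c-1 and 11.5% in hyp/hyp, so 1 of 11 higher in hyp/hyp is near background too. The median log2 difference was 0.00 in hyp/c-1 and 0.01 in hyp/hyp. Unadjusted p was under 0.05 for 6 genes in hyp/c-1 (33.3% of all genes) and 5 in hyp/hyp (35.5% of all genes), and voom called 0 in each. NIC2, a nicotinamidase gene that starts the recycling of the nicotinamide released by PARP enzymes, had 18.3, 14.2 and 11.5 TPM in hyp/c-1 and 13.8, 15.0 and 19.2 TPM in hyp/hyp, against 8.05, 9.01 and 8.81 TPM in WT. It was higher than WT by 0.68 in hyp/c-1 (limma adjusted p = 0.0158) and 0.81 in hyp/hyp (limma adjusted p = 0.00745) on the log2 scale. AO (0.58) and NAPRT2 (0.52), genes of NAD synthesis and recycling, also rose in hyp/c-1, where NMNAT fell by 0.41. SRT2, a sirtuin gene, fell by 0.40 in hyp/hyp. For each, the mean of the other mutant lay on the same side of WT, without passing. In hyp/hyp, AO had 1.34, 1.76 and 1.89 TPM (WT 1.45, 0.778 and 1.14). NAPRT2 had 13.4, 13.3 and 16.6 TPM there (WT 11.4, 11.6 and 12.4), and NMNAT 4.58, 5.30 and 4.45 (WT 5.89, 6.22 and 5.93). In hyp/c-1, SRT2 had 9.66, 8.82 and 9.76 TPM (WT 11.0, 11.5 and 12.3). None of the 11 genes passed adjusted p between the mutants.

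In base excision and single-strand break repair, the pathway that PARP enzymes are known to assist, 1 of 12 genes tested was higher by adjusted p alone in hyp/c-1 and 2 in hyp/hyp, and none was lower. Of all genes, 11.2% were higher by adjusted p alone in hyp/c-1 and 11.5% in hyp/hyp. The median log2 difference was 0.06 in hyp/c-1 and 0.14 in hyp/hyp. Unadjusted p was under 0.05 for 3 genes in hyp/c-1 and 4 in hyp/hyp, no more than the 33.3% and 35.5% of all genes, and voom called 0 in hyp/c-1 and 1 in hyp/hyp. AT3G14890 rose by 0.36 in hyp/c-1, and AT4G36050 by 0.45 and DNA polymerase lambda (AT1G10520) by 0.51 in hyp/hyp. The mean of the other mutant was also above WT for each, without passing. In hyp/c-1, AT4G36050 had 10.5, 9.11 and 7.67 TPM (WT 7.15, 6.31 and 7.51). Polymerase lambda had 1.11, 1.24 and 0.950 TPM there (WT 0.585, 0.629 and 0.668). In hyp/hyp, AT3G14890 had 3.92, 4.15 and 3.43 TPM (WT 3.64, 3.17 and 2.90). None of the 12 genes passed adjusted p between the mutants. XRCC1, a scaffold protein gene of this repair, was at −0.17 in hyp/c-1 and 0.28 in hyp/hyp and did not pass in either. Between the mutants, limma called none of the tested genes of the 4 lists, with an unadjusted p under 0.05 for 5 genes of ADP-ribose handling, 1 of NAD supply and use, 1 of this repair list and 2 of the DNA damage response list, beside 25.1% of all genes, and voom called none.

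**Figure D4:**
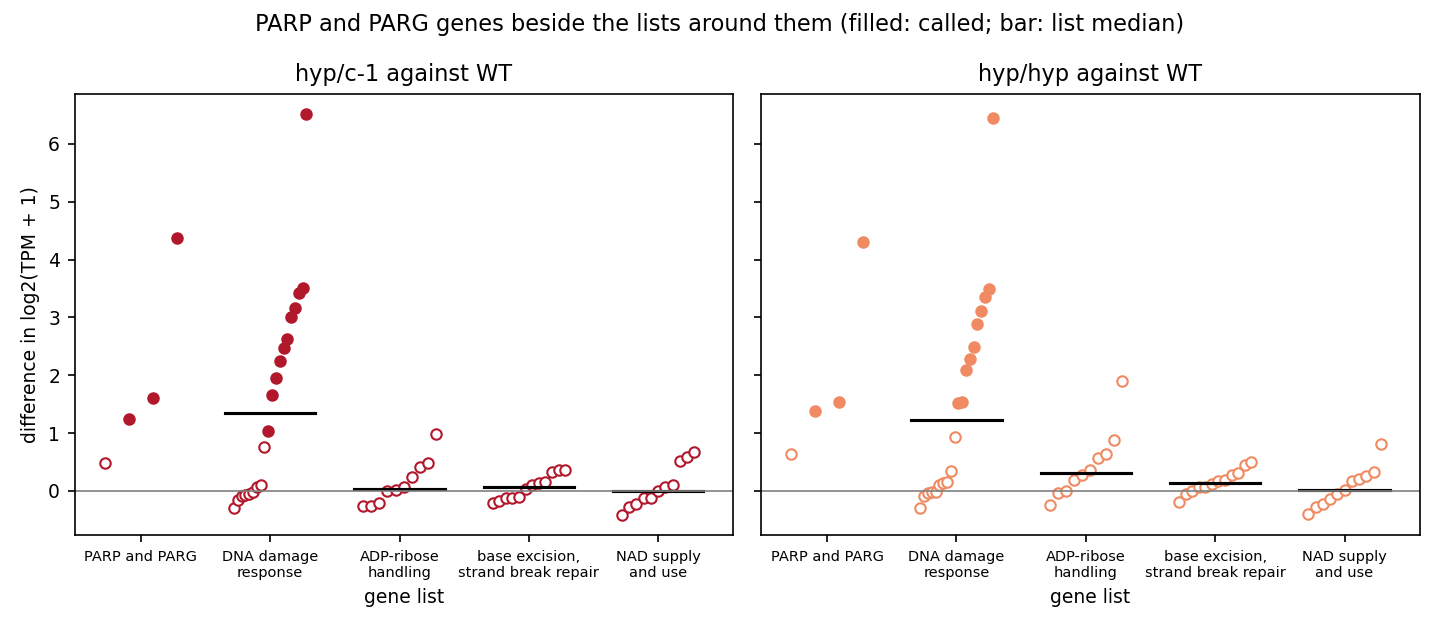
Differences in log2(TPM + 1) from WT of PARP1, PARP2, PARG1 and PARG2 and of the tested genes in the 4 lists, in hyp/c-1 on the left and hyp/hyp on the right; filled points were called, and the bars are list medians. PARP2 stands at 4.37 and 4.31, the DNA damage response medians are 1.35 and 1.23, and no gene of the other 3 lists is filled.

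Markers of other cells were checked beside these differences. Of 8 dividing cell markers tested, none passed limma's adjusted p in either mutant (unadjusted p under 0.05 for 4 in hyp/c-1, beside 33.3% of all genes, and 1 in hyp/hyp, beside 35.5%), and their 9 genes summed to 19.2 to 20.9 TPM in hyp/c-1, 15.3 to 20.7 TPM in hyp/hyp and 16.4 to 17.5 TPM in WT. Of 6 shoot meristem and floral markers, the stem cell genes WUS and CLV3 were at 0 in every library, but the others were not absent. SEP3 had 1.74 to 3.55 TPM over the 9 libraries, AG had 12 to 36 reads and AP3 had 2 to 6 reads. STM had 0 to 2 reads. Only SEP3 of this list was tested, and it did not pass adjusted p against WT in either mutant. Summed root hair markers were at most 0.181 TPM in hyp/c-1, 0.157 TPM in hyp/hyp and 0 in WT. Of 6 leaf markers, 3 were lower in hyp/hyp than in WT by adjusted p and none was called. The part of leaf marker levels in the higher PARP and PARG values was not tested.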

How the data were processed

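Gene expression was measured by RNA sequencing in 9 leaf libraries, 3 per genotype, grouped by the labels' genotype; replicates were not pooled. The values deposited by the authors are TPM for 27655 genes, and each library sums to 1000000. Per the submitters' processing notes, fastp 0.20.1, HISAT2 2.1.10, DESeq2 1.26.0 and the TAIR10 build were used; the counting program, its settings and its use of strand are not given in the sources used here. Multiplying deposited TPM by gene span gave whole reads, within 0.02 of a read, for 191771 of 191811 values above 0 (99.98%), so the deposited TPM divides by the span with introns. That lowers genes with long introns in every library alike. TPM per exon length was computed from those reads and RefSeq exons of TAIR10.1, for which 27445 genes had a match and 210 did not. Depth sets the precision, and a count of 0 allows 3 reads.

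Because the values are TPM, limma 3.58.1 in R 4.3.3 was fitted to log2(TPM + 1) of all 9 libraries, with a mean per genotype and a trended prior, for 17684 genes: those with a mean of at least 1 TPM, the 5 PARP and PARG genes, and ATXR5 and ATXR6. The 3 comparisons were adjusted by Benjamini-Hochberg over all genes tested. The fit was tested on simulated data. Alternatives were a pseudocount of 0.1, no minimum or a minimum of 5 TPM, quantile and median-of-ratios scaling, 2 genotypes only, a replicate block, no trend, voom on recovered reads and each library left out; TPM per exon length was added after seeing the data. Named were all 5 genes, ATXR5, ATXR6, up to 6 called genes per list and, for each called member, the 3 genes highest in Pearson's r. The members and lists were chosen with earlier results of these data known. No 2 libraries agreed within sampling noise (chi-square per degree of freedom 6.48 or above within genotypes). Motifs were searched with Biopython 1.88; Python 3.11.15, pandas 2.3.3 and matplotlib 3.10.9 made the tables and plots.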

Additional observations from a re-analysis of the deposited data

Results flagged for a closer look

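SRO1, a PARP-like gene of the RCD1 family, had 34.9, 28.2 and 24.7 TPM in hyp/c-1 and 35.7, 37.6 and 47.7 TPM in hyp/hyp, against 34.5, 37.0 and 33.2 TPM in WT. Each hyp/c-1 library lay below the WT mean and each hyp/hyp library above it, with replicate 1 of hyp/c-1 just below. The log2 difference of hyp/c-1 from hyp/hyp was −0.45 and did not pass (limma adjusted p = 0.0930).

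SRT1, a sirtuin gene that uses NAD, showed the same split around the WT mean. It had 2.15, 1.96 and 1.99 TPM in hyp/c-1 and 2.66, 2.62 and 2.86 TPM in hyp/hyp, against 2.07, 2.65 and 2.19 TPM in WT. The log2 difference of hyp/c-1 from hyp/hyp was −0.29 and did not pass (limma adjusted p = 0.126). The WT libraries of SRT1 overlapped those of both mutants. Such a split was searched only among the PARP and PARG genes and the lists around them, and its share over all genes was not counted. None of the 5 PARP and PARG genes was split in this way. That follows from values given above, since the detected ones had every mutant library above WT and PARP3 was at 0.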

How the results depend on the processing

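Over 16 alternatives, the differences of PARP1, PARP2, PARG1 and PARG2 from WT kept their direction and their call in both mutants, and 3 of the 5 genes were called each time, although PARG1 in hyp/c-1 passed adjusted p alone in 14 of the 16. With the replicate block, PARP2 differed from WT by 4.37 in hyp/c-1 (limma adjusted p = 7.73e-07) and 4.31 in hyp/hyp (limma adjusted p = 6.46e-07). Same-numbered libraries did not deviate together (r of −0.272 to 0.10), and the labels name no pairing. These r cannot exclude a pairing, since replicate 3 of hyp/c-1 and replicate 3 of hyp/hyp stood far apart on the second component. The replicate block left 0 of all genes called between the mutants, as did a fit of only these 2 genotypes. That count was 34 with no expression minimum, and 1 to 322 with 1 library left out. The difference of PARG2 between the mutants reversed, ranging from −0.36 to 0.16 with 1 library left out. With a minimum of 5 TPM, 366 of all genes were called in hyp/c-1 against WT, where fewer genes were tested. The ADP-ribose list held 1 called gene in hyp/c-1 against WT with a pseudocount of 0.1, no minimum, TPM per exon length or voom, and 0 to 1 with 1 library left out; that last range was 0 to 2 for hyp/hyp and WT, and 0 to 1 for the 2 mutants. The base excision list held 1 called gene in hyp/hyp with voom. Apart from the smaller number of genes or samples, the cause was not tested. Voom called 134 genes between the mutants, 849 in hyp/c-1 against WT and 735 in hyp/hyp against WT. With 3 libraries per genotype and 135 to 160 PARP2 reads in WT, the size of its fold rests on low WT values.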
